A study of Mus musculus with 60 samples.

Results

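The chromatin remodelling and histone modifier genes were taken as the genes of both chips whose name starts with Smarc, Kdm, Kmt, Chd and a digit, Brd and a digit, Hdac, Baz, Ezh or Arid, with Kdm5c and Kdm5d left out. They are 79 of 18193 genes named by a single symbol, with 205 of the 45037 probe sets tested. A probe set is a group of short probes that reads a stretch of a transcript. For 55 of the 79 genes there was more than 1 probe set, up to 7, and the brightest of each gene over all arrays was marked. WT and MSTN-null C57BL/6J mice, the latter without functional myostatin in every tissue, were compared at 3 time points. The embryo was taken whole at 13.5 d.p.c., the hindquarters were taken from fetuses of 17.5 d.p.c., and the pectoralis muscle came from mice of d35. At each time point there were 5 WT and 5 MSTN-null samples, and each sample was an RNA pool of 3 animals of 1 genotype. The pools were hybridized to the Affymetrix chips MOE430A and MOE430B. Values are log2 intensities, differences are WT minus MSTN-null on that scale, and a probe set was called when its Storey q-value from limma over all 45037 probe sets was under 0.05. The rule takes in a few genes by name alone: other ARID proteins bind DNA and are not all parts of a remodeller.

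In a nucleus, DNA is wound around histones, and the genes treated here decide how open that packing is. Remodellers of the SWI/SNF, ISWI and CHD families use ATP to slide or evict nucleosomes. Methyltransferases (Kmt, Ezh) and demethylases (Kdm) write and remove methyl groups on histone lysines, deacetylases (Hdac) remove acetyl groups, and bromodomain proteins (Brd, Baz) read acetyl groups. In muscle, SWI/SNF is brought to muscle genes by MyoD through its Smarcd3 subunit, class IIa deacetylases hold back the MEF2 factors, and Ezh2, the catalytic subunit of the repressive complex PRC2 in dividing cells, gives way to Ezh1 as myoblasts differentiate.

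A few facts on the arrays bear on what follows. Skeletal muscle markers averaged 9.68 and 9.75 in WT and MSTN-null embryos, 12.8 and 12.9 in hindquarters and 12.2 and 12.3 in pectoralis, so the muscle label held at the later time points. Liver markers were high in hindquarters too, with a mean of 12.46 in WT and of 11.3 in MSTN-null, where they fell to 8.61 in pool 5. The B chip of WT pool 1 at 17.5 d.p.c. stood apart from the other arrays. In embryos, the signal of the 3′ actin control probes minus that of the 5′ ones, a measure of RNA integrity and labelling, ran from 0.132 to 0.224 in WT and from 0.247 to 0.332 in MSTN-null pools, without overlap (two-sided exact permutation test, p = 0.00794, the smallest that 5 against 5 pools can give). The quartiles of the arrays matched within a time point and differed between time points, so levels across ages are given below only as ranks on the chip. In whole tissue, fewer cells of a type and less RNA per cell cannot be told apart. The Mstn transcript itself was not analysed here.

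The stretches before the start of 6 called genes are shown because these genes carry the differences described below and because their promoters differ in kind. Sequences are from RefSeq, mouse build GRCm38.p6, which held a promoter for 59 of the 79 genes and for 11 of the 13 genes called at any time point. Each run is the 160 bases just before the annotated start, 5′ to 3′ on the strand of the gene. Capitals mark a GC box (GGGCGG, bound by SP factors) or a core of the NRF1 site (GCGCATGC), on either strand. Smarca4 lies at chr9:21616009-21616168 on the plus strand, Smarca5 at chr8:80739460-80739619 on the minus strand, Smarcc1 at chr9:110131864-110132023 on the plus strand and Baz2b at chr2:60125741-60125900 on the minus strand, and all of these were called in embryos. Baz1b at chr5:135187163-135187322 on the plus strand and Kmt2c at chr5:25498784-25498943 on the minus strand were called in pectoralis muscle.
Smarca4: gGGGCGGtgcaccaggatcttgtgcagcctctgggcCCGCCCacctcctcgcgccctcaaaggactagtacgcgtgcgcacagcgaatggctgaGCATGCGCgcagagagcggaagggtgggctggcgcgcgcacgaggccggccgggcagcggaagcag
Smarca5: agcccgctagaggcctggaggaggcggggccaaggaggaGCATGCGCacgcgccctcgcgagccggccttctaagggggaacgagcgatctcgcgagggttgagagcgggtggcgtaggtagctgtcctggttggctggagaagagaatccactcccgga
Smarcc1: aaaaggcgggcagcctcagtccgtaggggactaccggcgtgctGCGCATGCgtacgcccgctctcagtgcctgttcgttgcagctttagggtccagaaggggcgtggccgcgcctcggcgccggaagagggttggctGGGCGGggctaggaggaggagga
Baz2b: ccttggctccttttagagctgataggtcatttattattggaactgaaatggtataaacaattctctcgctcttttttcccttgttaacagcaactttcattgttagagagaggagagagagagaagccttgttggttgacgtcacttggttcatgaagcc
Baz1b: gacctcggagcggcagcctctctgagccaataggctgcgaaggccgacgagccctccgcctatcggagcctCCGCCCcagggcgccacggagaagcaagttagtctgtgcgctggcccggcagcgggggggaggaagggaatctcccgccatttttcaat
Kmt2c: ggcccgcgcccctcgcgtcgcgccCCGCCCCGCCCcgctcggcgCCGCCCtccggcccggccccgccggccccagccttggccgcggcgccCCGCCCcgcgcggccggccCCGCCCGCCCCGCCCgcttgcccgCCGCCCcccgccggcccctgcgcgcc

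Most of these genes have the CpG-rich promoter of a widely expressed gene. Over the 250 bases before a start, the median number of CpG dinucleotides was 20 in the 81 windows of member genes and 6 in all 32851 windows. A GC box stood in 66.7% of the member windows and in 32.7% of all windows, the NRF1 core in 4.94% and 2.26%, and the ETS element CCGGAAG in 11.1% and 6.91%, each on either strand. The MyoD-type E-box CAGCTG was in 11.1% and 13% and the SMAD box CAGAC, the short site of the factors that act below myostatin receptors, in 35.8% and 42.2%. Of the 11 called genes with a promoter, 10 had a GC box and 4 the NRF1 core (Smarca4, Smarca5, Smarcc1 and Brd2). Kmt2c had 12 GC boxes in its window and Baz2b had none. A match is a run of letters and not a site shown to be bound.

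In embryos of 13.5 d.p.c., 10 of the 205 probe sets were called, and all 10 were higher in WT. They belong to 10 genes: the SWI/SNF subunits Smarca4 and Smarcc1, the ISWI ATPase Smarca5 and its partner family member Baz2b, the NuRD ATPase Chd4, the bromodomain readers Brd2, Brd3 and Brd8, and the demethylases Kdm5a and Kdm5b. The differences ran from 0.23 to 0.56, or 1.17-fold to 1.47-fold. The members' share called was 4.88%, beside 0.54% of all probe sets in either direction, 0.513% higher in WT and 0.0266% lower. At 14 member probe sets (6.83%) the pools of the genotypes did not overlap, beside 2.4% of all. Over the 205 probe sets 137 differences (66.8%) were positive, with a median of 0.03, whereas 50.3% were positive over all probe sets. With the actin measure as a covariate in the fit, 110 of the 205 (53.7%) were positive. The positive share of all probe sets in that fit was not counted. Among the brightest probe sets of the 79 genes, 3 were called (3.8%) and 49 were positive (62%), beside 0.297% and 42.6% of the brightest probe sets of all 18193 genes. No methyltransferase (30 probe sets) and no deacetylase (6, 8 and 5 probe sets of classes I, IIa and IIb with IV) was called in embryos. At the 0.54% of all probe sets, sets this small are not expected to hold a call. An unadjusted limma p under 0.05 was found at 11 of the 30 (36.7%) and at 0, 1 and 0 of the deacetylases, beside 11.3% of all. Markers of cycling cells (6 of 7 measured) averaged 11.38 to 11.45 in WT and 11.44 to 11.51 in MSTN-null embryos, and those of macrophages (4 of 5 measured) 8.57 to 8.69 and 8.66 to 8.73 (two-sided exact permutation tests, p = 0.0238 and 0.0317). Their part in these calls was not tested.

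**Figure D1:**
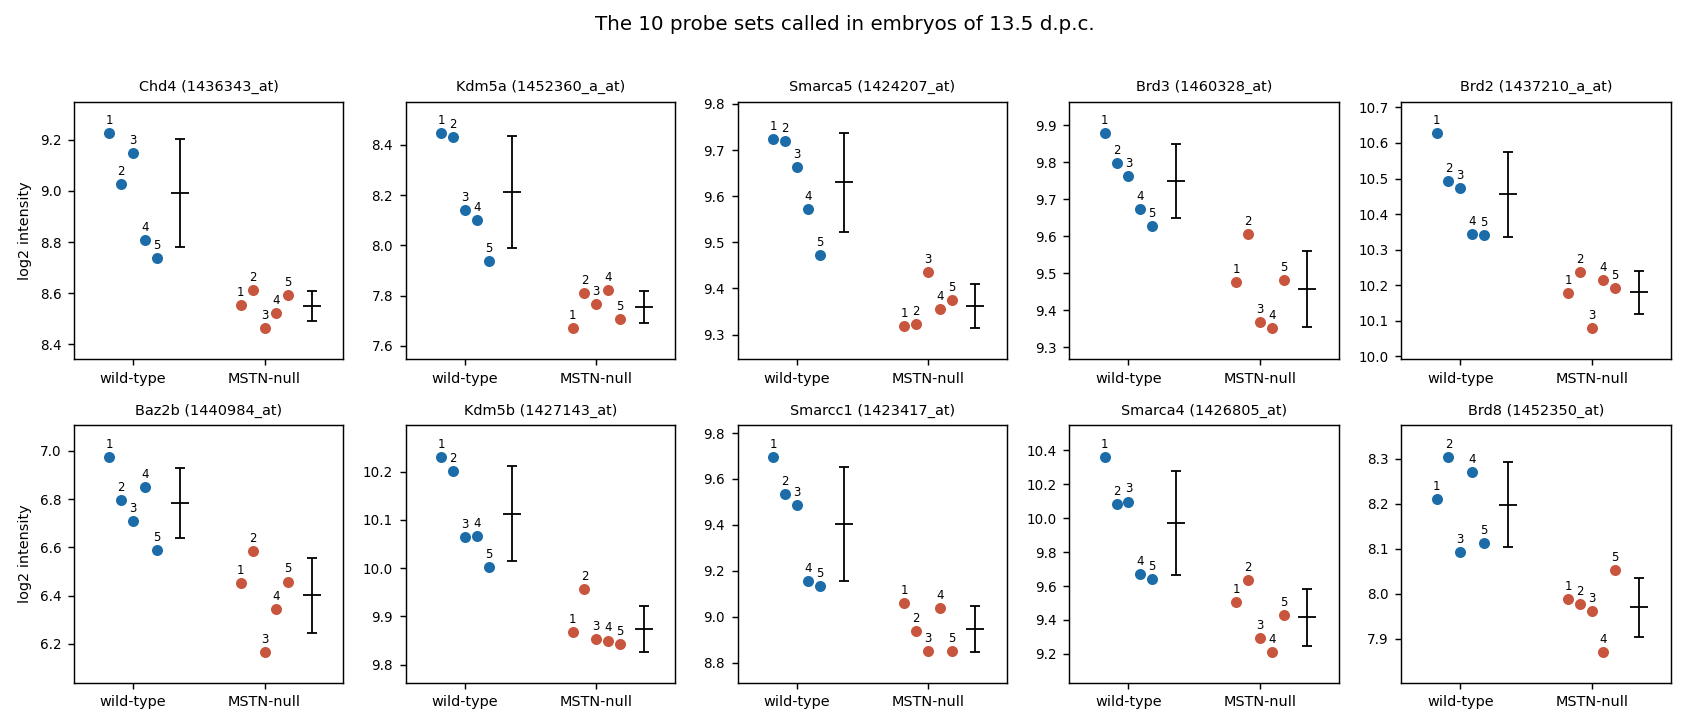
Log2 intensity of the 10 probe sets called in embryos of 13.5 d.p.c., in the 5 WT pools (blue) and the 5 MSTN-null pools (red). Numbers are pool numbers, and the black bar is the mean with its SD. No panel overlaps between genotypes, and WT pool 1 is the highest WT pool in 9 of the 10 panels and WT pool 5 the lowest in 9.

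Smarca4 (BRG1), the motor of SWI/SNF, had the largest difference. Its probe set 1426805_at stood at 10.36, 10.08, 10.10, 9.67 and 9.64 in WT pools 1 to 5 and at 9.50, 9.64, 9.30, 9.21 and 9.43 in MSTN-null pools 1 to 5. WT pools 4 and 5 lay just above the highest MSTN-null pool, and the other WT pools lay well above it. The difference was 0.56 (SE 0.12, 1.47-fold, limma q = 0.0471). The other probe set of the gene, 1426804_at, is 1.59 brighter and differed by 0.03 (SE 0.05, 95% CI -0.07 to 0.13). Smarcc1 (BAF155), a scaffold subunit of the same complex, read 9.70, 9.54, 9.49, 9.16 and 9.13 in WT and 9.06, 8.94, 8.85, 9.04 and 8.85 in MSTN-null at 1423417_at. Here too WT pools 4 and 5 lay closest to the MSTN-null pools. The difference was 0.45 (SE 0.09, 1.37-fold, limma q = 0.0391), while the other 3 Smarcc1 probe sets ran from -0.01 to 0.11. Smarcd3 (BAF60c), the subunit that binds MyoD, differed by 0.04 (SE 0.05).

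In the ISWI group, Smarca5 and Baz2b were called. Smarca5 (SNF2H), the ISWI motor, stood at 9.72, 9.72, 9.66, 9.57 and 9.47 in WT and at 9.32, 9.32, 9.44, 9.36 and 9.38 in MSTN-null at 1424207_at. WT pool 5 and MSTN-null pool 3 were the closest. The difference was 0.27 (SE 0.05, 1.20-fold, limma q = 0.0273), and the other 3 probe sets of Smarca5 were all positive, from 0.02 to 0.14. The brightest of these, 1424206_at, did not overlap between genotypes either, at a difference of 0.14 (limma q = 0.173). Baz2b, a bromodomain protein that pairs with ISWI motors, was dim at its called probe set 1440984_at, with 6.98, 6.80, 6.71, 6.85 and 6.59 in WT and 6.45, 6.58, 6.17, 6.34 and 6.46 in MSTN-null. It differed by 0.38 (SE 0.08, limma q = 0.0364) and its other 4 probe sets by 0.05 to 0.09. All 6 brightest probe sets of the ISWI and BAZ genes were positive in embryos, from 0.02 to 0.17.

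Chd4, the motor of the NuRD corepressor, read 9.23, 9.03, 9.15, 8.81 and 8.74 in WT and 8.56, 8.61, 8.46, 8.52 and 8.59 in MSTN-null at 1436343_at. All WT pools lay above all MSTN-null pools, and the difference was 0.44 (SE 0.08, 1.36-fold, limma q = 0.0215). Its other 2 probe sets differed by 0.11 and 0.22. Of the 9 brightest CHD probe sets, 3 were positive.

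Among the readers, Brd2 and Brd3 are BET proteins that bind acetylated histones at active promoters, and Brd8 is a subunit of the TIP60 acetyltransferase complex. Brd2 stood at 10.63, 10.49, 10.47, 10.34 and 10.34 in WT and at 10.18, 10.24, 10.08, 10.21 and 10.19 in MSTN-null, at its brightest probe set 1437210_a_at, a difference of 0.28 (SE 0.05, limma q = 0.0364). Brd3 stood at 9.88, 9.80, 9.76, 9.67 and 9.63 in WT and at 9.48, 9.61, 9.37, 9.35 and 9.48 in MSTN-null at 1460328_at. MSTN-null pool 2 came closest to WT pool 5, and the difference was 0.29 (SE 0.06, limma q = 0.0333). Brd8 read 8.21, 8.30, 8.09, 8.27 and 8.11 in WT and 7.99, 7.98, 7.96, 7.87 and 8.05 in MSTN-null at 1452350_at, a difference of 0.23 (SE 0.05, limma q = 0.0499), just inside the threshold. Its brightest probe set is 2.28 brighter and differed by -0.07. The family counted 13 of 16 probe sets above 0.

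Kdm5a and Kdm5b, which strip methyl groups from the histone H3 lysine that marks active promoters, were the demethylases called, both at the brightest probe set of the gene. Kdm5a stood at 8.45, 8.43, 8.14, 8.10 and 7.94 in WT and at 7.67, 7.81, 7.77, 7.82 and 7.71 in MSTN-null. The difference was 0.46 (SE 0.08, 1.37-fold, limma q = 0.0219), and its other 5 probe sets ran from -0.07 to 0.13. Kdm5b stood at 10.23, 10.20, 10.07, 10.07 and 10.00 in WT and at 9.87, 9.96, 9.85, 9.85 and 9.84 in MSTN-null, a difference of 0.24 (SE 0.05, 1.18-fold, limma q = 0.0372). Its other 3 probe sets were positive, from 0.07 to 0.09. Both genes separated the genotypes pool by pool, with WT pools 1 and 2 the highest.

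**Figure D2:**
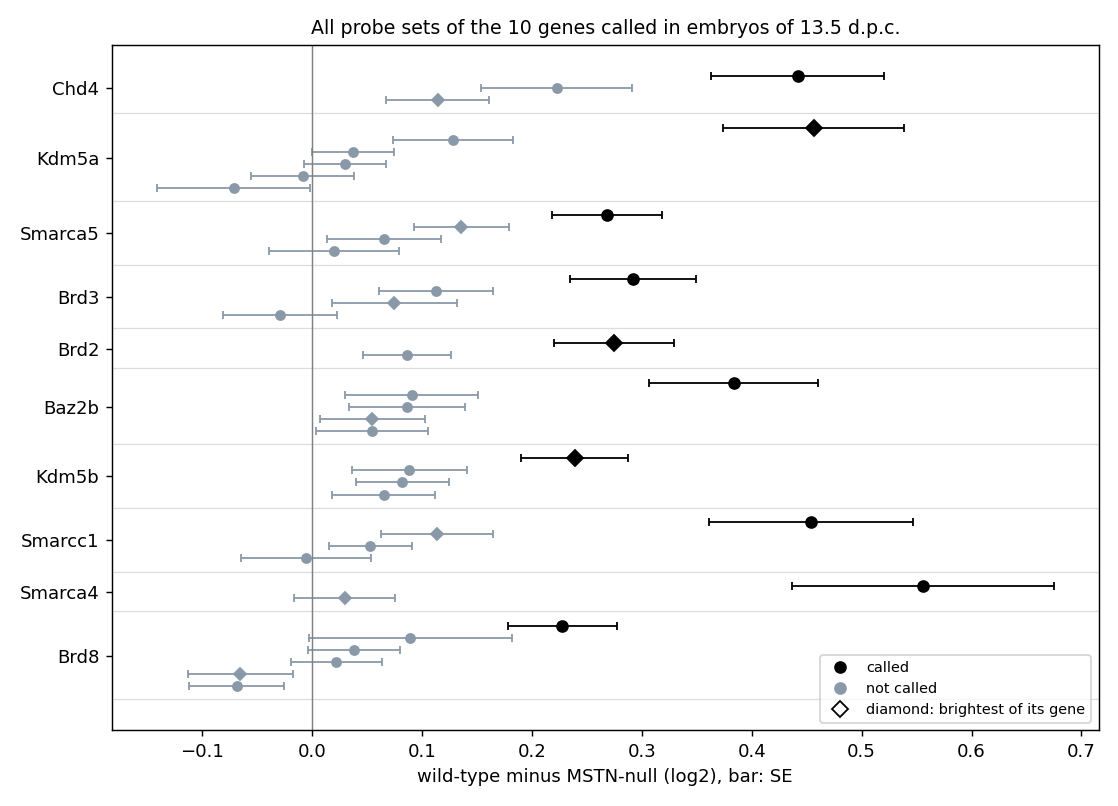
WT minus MSTN-null difference (log2, with SE) in embryos at 13.5 d.p.c. of all 40 probe sets of the 10 genes called, grouped by gene. Black marks are the 10 called and diamonds the brightest probe set of each gene: the 30 others lie between -0.07 and 0.22, and 3 called marks are diamonds.

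In 7 of the 10 genes the called probe set was not the brightest one. Of the 30 other probe sets, 0 were called, 24 were positive and 6 negative, and they ran from -0.07 to 0.22. Which transcript or part of a transcript each probe set reads was not analysed here.

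The WT pools shared an order across these probe sets. WT pool 1 was the highest WT pool at 9 of the 10 and WT pool 5 the lowest at 9, with mean deviations from the WT mean of 0.19 and -0.19. The spread was wider in WT, with a median SD of 0.13 against 0.07 in MSTN-null, and was larger in WT at 8 of 10. The actin 3′ minus 5′ differences were 0.132, 0.138, 0.157, 0.224 and 0.198 in WT pools 1 to 5, lower in pools 1 to 3 than in pools 4 and 5. With this measure as a covariate in the limma fit, 0 of the 205 members were called (1 of all 45037), and the differences of the 10 ran from -0.19 at Smarca4 to 0.16 at Kdm5a. Since that measure separates the genotypes in embryos, RNA condition as read by actin and genotype cannot be told apart there. The same measure from the Gapdh control probes overlapped between the genotypes in embryos. On chip A it ran from 0.0598 to 0.289 in WT and from 0.213 to 0.321 in MSTN-null pools. On chip B it ran from 0.226 to 0.267 and from 0.235 to 0.298 (two-sided exact permutation tests, p = 0.262 and 0.143). Without WT pool 1 there were 0 calls among the members (1 over all probe sets), and without WT pool 5 there were 14 (479 over all, or 1.06%). Leaving out WT pool 2 or 3, or MSTN-null pool 1, 3, 4 or 5, also gave 0 calls among the members. Those fits called 85, 46, 68, 31, 33 and 26 of all 45037 probe sets, so the loss was not particular to the members. The direction of all 10 was the same without any 1 pool. A limma fit of the brightest probe set of every gene alone called 0 of the 79 members (9 of all genes), and 1 fit of all 30 pools called 0 of the 205 (0 of all), whereas 38 (18.5%, beside 11.3% of all) had an unadjusted p under 0.05 in the fit of embryos alone.

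Among the brightest probe sets with a negative difference in embryos, none of which was called, Kmt2d, Arid5b and Hdac10 had the smallest p. Kmt2d (MLL4), an enhancer methyltransferase, differed by -0.13 (SE 0.05, limma q = 0.28). Arid5b, a DNA-binding ARID protein, and Hdac10, a polyamine deacetylase, each differed by -0.08 (limma q = 0.367 and 0.369). Of the methyltransferases, Kmt2e (MLL5) and Kmt5a, which methylates histone H4, had probe sets without overlap between genotypes: 1439108_at at 0.21 (limma q = 0.09) and 1427236_a_at at 0.16 (limma q = 0.178) for Kmt2e, and 1441557_at at 0.23 (limma q = 0.0701) for Kmt5a. They are named here after their values were seen. Kdm6a, the X-linked demethylase of the Polycomb mark, which escapes X inactivation, differed by 0.36 (SE 0.11, limma q = 0.137, and 0.032 with the pool number as a block). It stood at 9.87, 9.57, 9.77, 9.59 and 9.34 in WT and at 9.41, 9.50, 9.22, 9.29 and 8.91 in MSTN-null, and the ranges overlapped. MSTN-null pool 5 was both the lowest in Kdm6a and the lowest in Xist, the RNA of the inactive X, at 8.36 beside 11.3 to 12.3 in the WT pools. Without that pool the Kdm6a difference was 0.28 (limma q = 0.28).

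In hindquarters at 17.5 d.p.c., 0 of the 205 probe sets were called, as were 0% of all probe sets, and limma gave 2 member probe sets an unadjusted p under 0.05. The lowest q of a member was 0.99995. Of the differences 97 were positive, with a median of -0.01. At 1 member probe set (0.488%) the genotypes did not overlap, beside 0.535% of all. It was Hdac6, the cytoplasmic deacetylase of tubulin, at 9.53, 9.36, 9.31, 9.47 and 9.33 in WT and 9.28, 9.23, 9.30, 9.19 and 9.22 in MSTN-null. WT pool 3 and MSTN-null pool 3 were the closest, and the difference was 0.15 (95% CI 0.03 to 0.28, unadjusted limma p = 0.0199). Ezhip, an inhibitor of PRC2, differed by 0.11 (95% CI -0.02 to 0.23), and Smarcd1 (BAF60a), a SWI/SNF subunit, by 0.10 (95% CI -0.02 to 0.23). On the other side, Smarcd3 differed by -0.23 (95% CI -0.51 to 0.06), Brd1, a scaffold of acetyltransferase complexes, by -0.13 (95% CI -0.29 to 0.03), and Kmt5b, a histone H4 methyltransferase, by -0.10 (95% CI -0.25 to 0.05). Smarcd3 stood lower in WT pools 1, 2 and 4, at 9.52, 9.72 and 9.73, than in the 5 MSTN-null pools, which ran from 9.89 to 10.22, while WT pools 3 and 5 were at 10.16 and 10.17. The median SD between pools of the members was 0.14 in hindquarters beside 0.08 in embryos, so differences of the embryo's size were harder to detect. Without WT pool 1 and MSTN-null pool 5 together there were still 0 calls, and 124 of 205 differences were then positive.

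The 10 probe sets called in embryos did not keep that direction in hindquarters, where 1 of 10 was positive and the range was -0.18 to 0.05. In pectoralis 7 of 10 were positive, from -0.10 to 0.19, and none was called. The difference between time points was tested by interaction contrasts in a limma fit of all 30 pools, and no member passed. Over all probe sets 0% were called between embryos and hindquarters, 1.17% between 13.5 d.p.c. and d35, and 0.715% between 17.5 d.p.c. and d35. The member nearest the threshold was Smarcc1, with 0.53 (SE 0.15, limma q = 0.0716) between 13.5 d.p.c. and d35 and 0.61 (SE 0.15, limma q = 0.404) between embryos and hindquarters. For Smarca4 at 1426805_at the contrast against d35 was 0.66 (SE 0.20, limma q = 0.101), and for Baz1b it was -0.24 (SE 0.08, limma q = 0.128). Neither an equal nor a different effect at the time points was thus shown for any member, and tissue and age changed together.

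**Figure D3:**
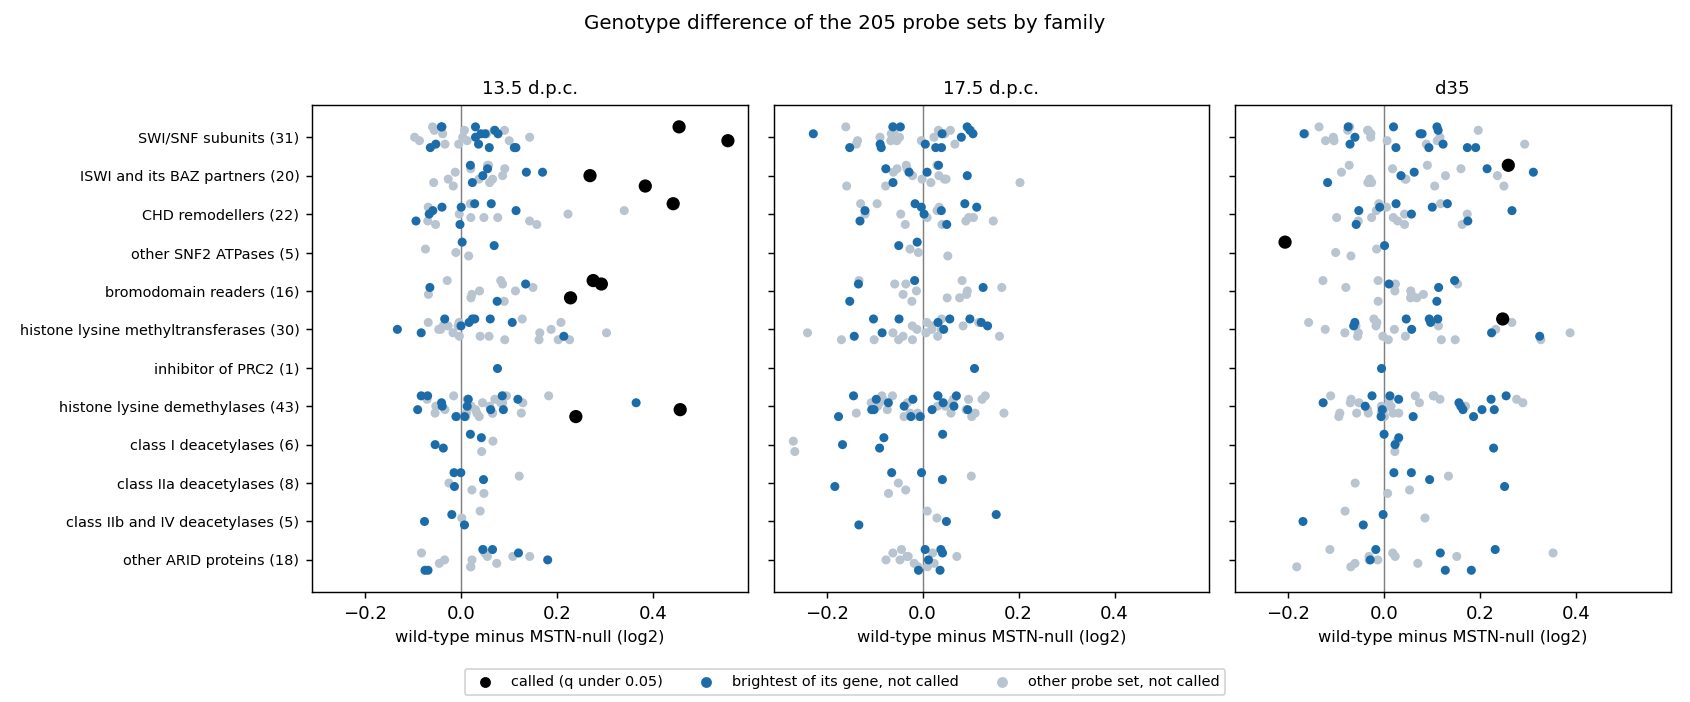
WT minus MSTN-null difference (log2) of the 205 probe sets by family at each time point, with the number of probe sets in brackets. Black points were called (10 at 13.5 d.p.c., 0 at 17.5 d.p.c., 3 at d35), blue points are the brightest of their gene and grey points the others: the called points of embryos all lie to the right, at 0.23 to 0.56.

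In pectoralis muscle at d35, 3 of the 205 probe sets (1.46%) were called, beside 4.58% of all probe sets. Baz1b and Kmt2c were higher in WT and Smarcal1 was lower, beside 2.5% of all probe sets higher and 2.08% lower. Each was the brightest of its gene. At 7 member probe sets (3.41%) the genotypes did not overlap, beside 5.25% of all, so over all probe sets neither share was larger than the background. Among the brightest probe sets 3 were called (3.8%, beside 6.02% of all genes). At 6 of these the genotypes did not overlap (7.59%, beside 6.57%). The differences leaned to WT: 124 of 205 (60.5%) were positive, beside 44% of all. Among the brightest probe sets 57 of 79 (72.2%) were positive, with a median of 0.06, beside 45.8% of the brightest of all genes. With the actin measure as a covariate, 107 of the 205 (52.2%) were positive, and the share of all probe sets was not counted.

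Baz1b (WSTF), the partner of ISWI in replication and repair, stood at 8.67, 8.84, 8.72, 8.81 and 8.73 in WT and at 8.49, 8.50, 8.50, 8.38 and 8.61 in MSTN-null. The closest pools were WT pool 1 and MSTN-null pool 5, and the groups did not overlap. The difference was 0.26 (SE 0.05, 1.20-fold, limma q = 0.0130), and the other 4 Baz1b probe sets ran from -0.09 to 0.05. Kmt2c (MLL3), which methylates histones at enhancers, stood at 8.28, 8.43, 8.51, 8.32 and 8.39 in WT and at 8.02, 8.08, 8.16, 8.26 and 8.17 in MSTN-null. WT pool 1 lay just above MSTN-null pool 4. The difference was 0.25 (SE 0.06, 1.19-fold, limma q = 0.0268), and its other 3 probe sets were also positive, from 0.04 to 0.33. Smarcal1, an annealing helicase that repairs stalled replication forks, stood at 7.56, 7.61, 7.55, 7.80 and 7.66 in WT and at 7.81, 7.80, 7.79, 7.94 and 7.87 in MSTN-null. WT pool 4 fell within the MSTN-null range and the other WT pools below it. The difference was -0.21 (SE 0.06, 0.867-fold, limma q = 0.0472), and the other 2 probe sets were at -0.07 and -0.02.

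**Figure D4:**
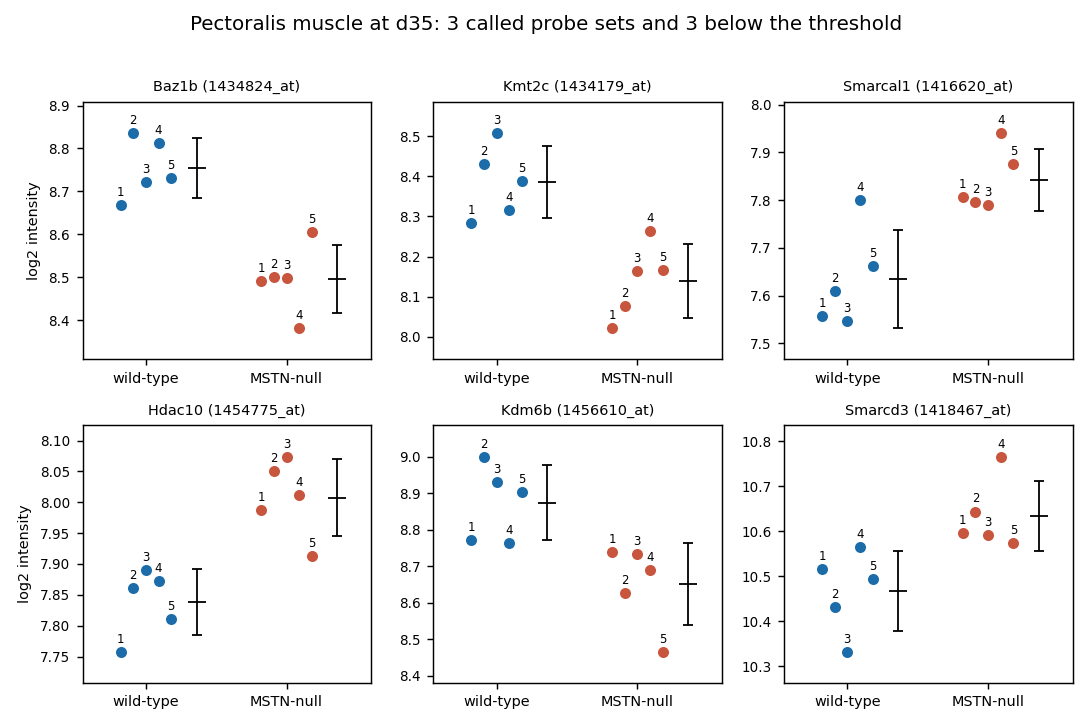
Log2 intensity in pectoralis muscle at d35 in the 5 WT pools (blue) and the 5 MSTN-null pools (red) of the 3 called probe sets (Baz1b, Kmt2c, Smarcal1) and of the brightest probe sets of Hdac10, Kdm6b and Smarcd3, which were not called. Numbers are pool numbers and the black bar is the mean with its SD. The genotypes overlap only for Smarcal1, at WT pool 4.

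Among the brightest probe sets not called, Hdac10, Kdm6b and Smarcd3 were without overlap and had a q under 0.1. Probe sets other than the brightest also lay near the threshold, Kmt2e 1434704_at with 0.27 (limma q = 0.0503) and Kdm5a 1437105_at with 0.28 (limma q = 0.0553), both with overlap, and Kdm2a 1438890_at with 0.17 (limma q = 0.0678), without. These 3 probe sets are named after their values were seen. Hdac10 was 7.76, 7.86, 7.89, 7.87 and 7.81 in WT and 7.99, 8.05, 8.07, 8.01 and 7.91 in MSTN-null, a difference of -0.17 (SE 0.05, limma q = 0.0513). Kdm6b, an autosomal demethylase of the Polycomb mark, was 8.77, 9.001, 8.93, 8.76 and 8.90 in WT and 8.74, 8.63, 8.73, 8.69 and 8.47 in MSTN-null, a difference of 0.22 (SE 0.07, limma q = 0.0575). Smarcd3 was 10.52, 10.43, 10.33, 10.56 and 10.49 in WT and 10.60, 10.64, 10.59, 10.77 and 10.57 in MSTN-null, a difference of -0.17 (SE 0.06, limma q = 0.0883). In Smarcd3, WT pool 4 lay just below the lowest MSTN-null pool. None of these passed.

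Several measures other than chromatin genes moved with genotype in pectoralis. Endothelial markers (5 of 5 measured) averaged 8.24 to 8.43 in WT pools and 7.91 to 8.15 in MSTN-null pools, and white adipocyte markers (4 of 6 measured) 11.2 to 11.4 and 10.3 to 11.2 (two-sided exact permutation tests, p = 0.00794 and 0.0159). Xist ran from 9.001 to 9.23 in WT and from 8.12 to 9.09 in MSTN-null (two-sided exact permutation test, p = 0.0317). The Y-linked Eif2s3y ran from 4.53 to 5.67 and from 5.13 to 6.04 (p = 0.0159 by the same exact permutation test). Both measures overlapped between genotypes and the labels do not give the sex of the animals. Whether the pools differed in sex make-up was not tested. The actin 3′ minus 5′ difference ran from 0.171 to 0.582 (WT pool 2) in WT and from 0.115 to 0.244 in MSTN-null pectoralis. Its mean was higher in WT, the reverse of embryos (two-sided exact permutation test, p = 0.0714). With Xist as a covariate the differences of Baz1b, Kmt2c and Smarcal1 were 0.23, 0.19 and -0.18, and with the actin measure 0.23, 0.21 and -0.17. None of the 3 passed limma's threshold with either covariate. Calls over all probe sets fell too, from 2062 to 78 (0.173%) with Xist and to 632 (1.4%) with the actin measure. The part of the marker lists in these results was not tested. Calls at d35 also varied when 1 pool was left out. Baz1b was called in all 10 such fits (limma q = 0.0103 to 0.0383), Kmt2c in 5 and Smarcal1 in 1. The number of members called ran from 1, without WT pool 2 or 3 or MSTN-null pool 2 or 3, to 6, without WT pool 4 or 5. Over all probe sets the former fits called 777 to 1443 and the latter 2003 and 1856. Baz1b was called in 18 of 20 alternative settings, Kmt2c in 12 and Smarcal1 in 8.

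No class IIa deacetylase, Ezh gene, Smarcd3 or Kdm1a was called at any time point. The class IIa deacetylases Hdac4, Hdac5, Hdac7 and Hdac9 sit on MEF2 and keep its target genes silent until kinases drive them out of the nucleus. In embryos their brightest probe sets differed by -0.01 to 0.05 and in hindquarters by -0.18 to 0.04. In pectoralis all 4 were positive, from 0.02 to 0.25, and none passed. This was not particular to them: all 4 class I deacetylases and all 4 bromodomain readers were positive too, as were 72.2% of all 79 members. The other Hdac9 probe set was at -0.06. Hdac7 was 8.66, 8.66, 8.73, 8.65 and 8.64 in WT and 8.59, 8.56, 8.61, 8.49 and 8.62 in MSTN-null pectoralis, without overlap, and differed by 0.10 (SE 0.04, limma q = 0.183). Hdac9, dimmer and more variable, ran from 6.31 to 7.33 in WT and from 6.10 to 7.03 in MSTN-null, and its difference of 0.25 had a 95% CI of -0.16 to 0.66. For Hdac4 and Hdac5 the intervals in pectoralis were -0.09 to 0.21 and -0.12 to 0.16.

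The Ezh2 difference was 0.03 (95% CI -0.07 to 0.13) in embryos, 0.06 (95% CI -0.16 to 0.27) in hindquarters and 0.09 (95% CI -0.07 to 0.26) in pectoralis. Those of Ezh1 were 0.02 (95% CI -0.09 to 0.12), 0.12 (95% CI -0.03 to 0.27) and 0.10 (95% CI -0.06 to 0.25). Kdm1a (LSD1), a demethylase needed for myogenic differentiation, differed by 0.01, -0.04 and 0.16, and the last had an unadjusted limma p of 0.0493 and q of 0.179. Kdm6a differed by 0.04 in hindquarters and 0.16 in pectoralis (limma q = 0.183), and Chd4 at its brightest probe set by 0.04 and -0.05.

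The ranks of these genes were also compared across age and tissue, over both genotypes. Ranked among the probe sets of its chip, the median brightest member stood at the 86.0 percentile in embryos, 81.2 in hindquarters and 76.4 in pectoralis, and 58 of 79 genes ranked lower in pectoralis than in embryos. The brightest probe sets of all 18193 genes had medians of 63.0, 63.8 and 63.4, and how many of all genes ranked lower was not counted. These ranks come from time points normalized apart, and no test was made. Most remodellers shared this order: all 9 CHD genes, all 6 ISWI and BAZ genes, all 4 class I deacetylases and 12 of 14 SWI/SNF subunits ranked lower, while 3 of the 4 class IIa deacetylases ranked higher. Demethylases went from a median of 84.2 to 63.8. Ezh2 went from 90.8 to 81.2 and 41.7, whereas Ezh1 went from 40.2 to 56.8 and 70.1. Levels of different probe sets cannot be compared as amounts. Smarca1, the ISWI motor known from neurons, went from 69.8 to 11.9, and was picked here after its values were seen. Hdac9 went from 35.5 to 65.2 and Smarcd3 from 88.0 to 95.7.

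**Figure D5:**
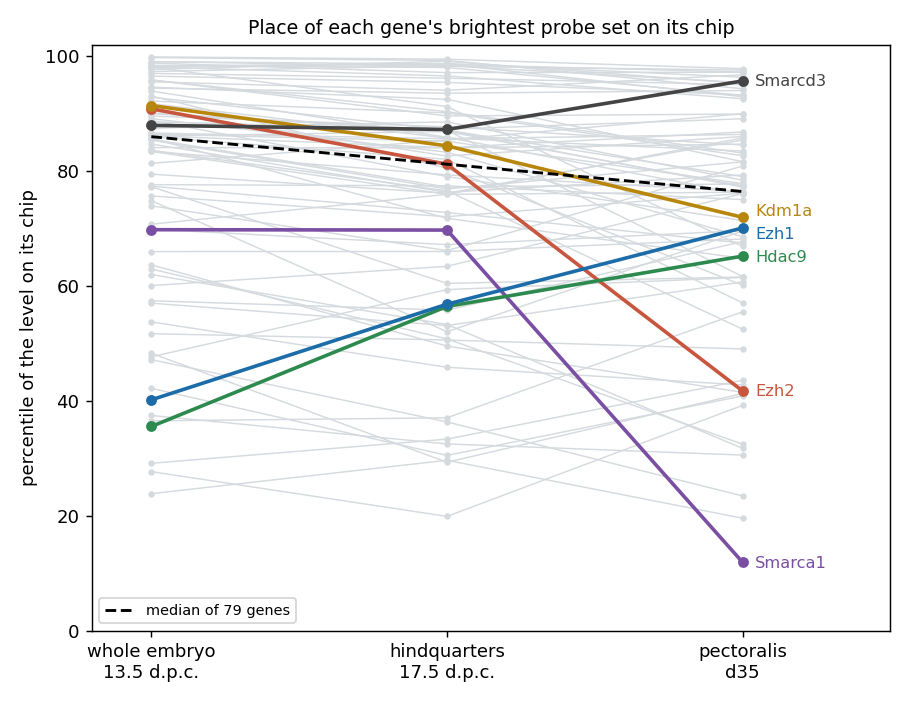
Percentile of the level on its chip (0 to 100, mean over the 10 pools of a time point) of the brightest probe set of each of the 79 genes in whole embryos, hindquarters and pectoralis muscle. The dashed line is the median (86.0, 81.2, 76.4). Ezh2 goes from 90.8 to 41.7, Ezh1 from 40.2 to 70.1, and Smarca1 ends at 11.9.

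Partners that act in the same complexes under other names were read from a list of 93 genes, 84 of them measured by 210 probe sets. In embryos 4 probe sets (1.90%, beside 0.54% of all probe sets and 0.513% higher in WT) were called and all were higher in WT: Suz12 and Mtf2 of PRC2 by 0.25 and 0.32, the corepressor subunit Tbl1x by 0.35 and the acetyltransferase Crebbp by 0.40 (limma q = 0.0222 to 0.0499). Each was at a probe set other than the brightest of its gene, and 0 partners were called with the brightest probe sets alone, in 1 fit of all 30 pools, or with the actin measure or Xist as a covariate. Those fits called 9, 0, 1 and 25 of all probe sets fitted. In hindquarters 0 were called. In pectoralis 10 probe sets (4.76%) of 8 genes were called, close to the 4.58% of all probe sets, 9 of them lower in WT and 1 higher. With the actin measure or Xist as a covariate 0 partners were called, beside 1.4% and 0.173% of all probe sets. Smyd1, the muscle-specific methyltransferase needed to build sarcomeres, was lower in WT at 3 probe sets, by -0.30 (SE 0.07), -0.61 (SE 0.15) and -0.62 (SE 0.16), or 0.811-fold to 0.649-fold (limma q = 0.0243 to 0.0329). Prmt5, an arginine methyltransferase, differed by -0.34 (SE 0.07, limma q = 0.0123) and Ruvbl1, an ATPase of INO80, by -0.23 (SE 0.05, limma q = 0.0157). Ss18, a SWI/SNF subunit, was the gene higher in WT, by 0.20 (SE 0.05, limma q = 0.0421).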

How the data were processed

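RNA from pools of 3 mice was measured in 30 pools on 60 arrays, 1 MOE430A and 1 MOE430B array per pool. The authors deposited log2 intensities, 1 per probe set, made with RMA in the R package affy (background correction, quantile normalization, summary by probe set). The version and a genome build are not given in the sources used here. Both chips were joined by pool to 45037 probe sets without control probe sets. Genes were named from the platform annotation where a probe set had 1 symbol (34945 probe sets), and the 79 member genes were matched to RefSeq by gene ID. WT and MSTN-null were compared within each time point with limma 3.58.1 in R 4.3.3 (lmFit and eBayes), with Storey q-values over all probe sets and a threshold of 0.05. Single measures per pool were compared by exact permutation over 252 splits. The number of arrays limits the precision. No source used here says that animals of different pools came from separate litters, so p-values measure the spread between pools.

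Named are every called member, the 3 brightest probe sets with the smallest p in each direction per time point, the class IIa deacetylases, Ezh1, Ezh2, Smarca4, Smarcd3, Chd4, Kdm1a and Kdm6a, and up to 4 called partner genes per time point. The members, lists and tests were chosen with earlier results of these data known. Alternatives were Benjamini-Hochberg adjustment, each chip on its own, probe sets with a mean under 6 left out, further quantile normalization, a trended and robust variance, 1 fit of all 30 pools, the pool number as a block, the brightest probe set of each gene alone, the actin 3′ minus 5′ difference as a covariate and leaving out each pool. A fit with Xist as covariate, and one at 17.5 d.p.c. without WT pool 1 and MSTN-null pool 5, were chosen after seeing the data. The fit was tested on simulated data. Pools with the same number did not deviate together at every time point. Promoters and motifs were read with Python 3.11.15 and pandas 2.3.3, and plots were drawn with matplotlib 3.10.9.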

Additional observations from a re-analysis of the deposited data

Results flagged for a closer look

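Among 112 groups of 5 pools of the named probe sets, 4 held a pool far from the others, and chance alone gives about 1 in 20 groups (5%). In embryos, Ezh2 was 10.56 in WT pool 1 and 10.43 to 10.45 in the other WT pools, and Kdm5b was 9.96 in MSTN-null pool 2 and 9.84 to 9.87 in the other MSTN-null pools. In pectoralis muscle, Hdac7 was 8.73 in WT pool 3 and 8.64 to 8.66 in the other WT pools, and Kdm6a was 7.81 in MSTN-null pool 4 and 8.10 to 8.17 in the other MSTN-null pools.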

How the results depend on the processing

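The number of member probe sets called in embryos was 10, beside 0.54% of all probe sets, and 5 after further quantile normalization, beside 0.371%. It was 0 in 1 fit of all 30 pools, with the brightest probe set of each gene alone, with the actin measure and with Xist as covariate. Those fits called 0, 9, 1 and 25 of all probe sets fitted. Without 1 pool, 0 to 14 members were called. There were 0 without WT pool 1, 2 or 3 or MSTN-null pool 1, 3, 4 or 5, beside 1 to 85 of all probe sets. There were 14 without WT pool 5, beside 479 of all. In pectoralis muscle 3 of 205 members were called, beside 4.58% of all probe sets. Without dim probe sets it was 7 of 148, beside 8.77%, and with the brightest probe sets alone 5 of 79, beside 7.39%. After quantile normalization or with a trended and robust variance it was 5 of 205, beside 5.03% and 4.61%. With the actin measure or Xist as covariate it was 0, beside 1.4% and 0.173%. Without 1 pool it ran from 1 to 6, beside 1.73% to 4.45% of all. Partner calls in embryos (4) were 0 in 1 fit of all pools, with the brightest probe sets alone and with either covariate. Without 1 pool they were 0 to 12 (12 without WT pool 5, beside 1.06% of all probe sets). In pectoralis they were 10, 4 by Benjamini-Hochberg (beside 2.94% of all) and 6 with a trended and robust variance (beside 4.61%). They were 0 with either covariate and 2 to 7 without 1 pool. The cause of these shifts was not tested. No alternative gave a call in hindquarters. The contrasts between time points called 0 members, 1 after quantile normalization (Baz1b) and 0 to 2 without 1 pool (Smarcc1, Smarca4 or Smarcal1).

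With the pool number as a replicate block, 9 member probe sets were called in embryos (7 of the 10), 4 in pectoralis and 0 in hindquarters, and 2 and 8 partner probe sets in embryos and pectoralis. Over all probe sets 0.453% were then called in embryos, 4.12% in pectoralis and 0% in hindquarters. Deviations of pools with the same number correlated from -0.10 to 0.08 in embryos, -0.20 to 0.48 in hindquarters and -0.17 to 0.14 in pectoralis. The numbers thus showed no pairing of the pools in embryos or pectoralis. In hindquarters the correlations were 0.30, 0.39 and 0.48 for pools 1, 3 and 5 and -0.20 and -0.07 for pools 2 and 4. Whether the numbers pair the pools there was not tested.

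Some differences changed sign, among them 2 of the 10 called in embryos. With the actin covariate, Smarca4 1426805_at, the largest of these at 0.56, was -0.19, and Brd3 1460328_at, at 0.29, was -0.00563. Of the uncalled ones in embryos, Hdac7 was -0.0832, Ezh2 -0.0498, Chd4 1451295_a_at -0.0514, Smarcd3 -0.0209 and Hdac9 0.0685 with that covariate, and after quantile normalization Kdm1a was -0.00691. In hindquarters Hdac5 was 0.0255 with the actin covariate, and without both pools that stand apart Hdac5 was 0.0143, Ezh2 -0.0407 and Hdac9 0.045. In pectoralis Ezh1 was -0.0747 with Xist as covariate. Without 1 pool, differences in embryos ran from -0.0167 to 0.058 for Ezh1, -0.0343 to 0.00906 for Hdac4, -0.0226 to 0.0245 for Hdac5, -0.0414 to 0.0228 for Hdac9, -0.00167 to 0.0308 for Kdm1a, -0.00225 to 0.055 for Smarca4 1426804_at. In hindquarters they ran from -0.00033 to 0.0831 for Chd4, -0.13 to 0.00193 for Hdac4, -0.0396 to 0.0379 for Hdac5, -0.00283 to 0.0726 for Hdac7, -0.29 to 0.00709 for Hdac9, -0.093 to 0.00112 for Kdm1a, -0.0432 to 0.11 for Kdm6a, and in pectoralis from -0.0232 to 0.063 for Hdac5. Of the values of named probe sets under alternatives, 938 kept direction and side of the threshold, 143 lost the call in the same direction, 9 gained it and 39 changed sign, Smarca4 1426805_at and Brd3 1460328_at among the latter. The 938 include probe sets never called, among them 320 values in hindquarters, and are no measure of how stable the calls were. Each of the 10 embryo calls was kept in 4 to 9 of 19 or 20 alternatives, and 121 of the 143 losses were in embryos.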
